A study of Gallus gallus with 54 samples.

Results

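The ID genes ID1, ID2, ID3 and ID4, the inhibitory SMADs SMAD6 and SMAD7, and the pseudoreceptor gene BAMBI were examined across the follicle wall of the laying hen. The 7 genes were taken by symbol from the reference gene names that the deposited transcript tables carry, and each symbol led to 1 locus of the 26624 genes in the count table. White Leghorn hens of 35 to 40 weeks were fed for 4 days with water (NC, the blank group), with 15 mg bicalutamide (bic, an androgen receptor antagonist) or with 100 mg mestanolone (mes, an androgenic steroid), and follicles were taken after 1 day of withdrawal. Granulosa (GC) and theca (TC) layers were peeled from small yellow follicles of 6 mm (6mm), from the fifth largest preovulatory follicle (F5) and from the largest (F1), and polyadenylated RNA was sequenced in 3 libraries for each of the 18 combinations, 54 in all with 27 per layer. According to the study's methods, all larger preovulatory follicles of the mes hens were labelled F1, so that the mes F1 libraries need not come from the single largest follicle. The library names placed several of these libraries on 1 hen. The 3 bic GC F1 libraries came from 1 hen, 2 of the 3 bic TC F1 libraries came from 1 hen, and 2 of the 3 NC GC F1 libraries came from 1 hen. Such libraries were summed before testing, which left 50 hen samples, and n below counts hens. Each of the other groups held 3 hens.

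Bone morphogenetic proteins (BMPs) signal through type I and type II receptor kinases to SMAD1, SMAD5 and SMAD9, which enter the nucleus with SMAD4. The ID genes are direct targets of this signal in many cell types, and their products are helix-loop-helix proteins without a DNA-binding region that hold E proteins such as TCF3, TCF4 and TCF12 away from DNA. SMAD6 and SMAD7 are induced by the pathway and block it at the receptor, SMAD6 chiefly on the BMP side and SMAD7 on both the BMP and the TGF-beta and activin side, while BAMBI encodes a membrane protein that resembles a type I receptor but lacks the kinase. In the hen ovary, members of this ligand family from the oocyte, the granulosa and the theca are known to act on granulosa cell differentiation.

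On the assembly Gallus_gallus-5.0, which the study used, ID1 lies on chromosome 20 (10208269 to 10209010, plus strand, 1 transcript with 2 exons) and ID2 on chromosome 3 (96269619 to 96271559, plus strand, 1 transcript with 3 exons). ID3 lies on chromosome 23 (2211780 to 2213056, minus strand, 3 exons), and ID4 on chromosome 2 (59931745 to 59933578, minus strand, 3 exons). SMAD6 was annotated on chromosome 10 (18699479 to 18727089, plus strand, 4 exons), SMAD7 on chromosome Z (1241970 to 1271132, plus strand, 2 transcripts with 5 and 4 exons) and BAMBI on chromosome 2 (15317843 to 15321681, minus strand, 3 exons). The values below are whole-gene levels in FPKM (fragments scaled to transcript length and sequencing depth), summed over a gene's transcripts, and fold changes come from the deposited counts after TMM scaling. The fitted changes and the FPKM are on different scales. Over genes with at least 1 FPKM in both groups, the median fitted log2 change less the log2 ratio of mean FPKM was 0.87 for NC GC F1 against 6mm, 0.55 for F1 against F5 and 0.33 for F5 against 6mm, at most 0.24 for the NC TC stages, and -0.40 between the NC layers at F1. A fall of a gene in the GCs was therefore smaller in the fit than in the printed FPKM. For ID4, SMAD6 and SMAD7 between NC GC F1 and 6mm, the ratio of mean FPKM was 51.9-, 9.03- and 22.7-fold where the fit gave 27.4-, 4.97- and 12.2-fold.

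The libraries held 33513156 to 65054906 counts each, with a median of 46896540, so that counting error was small for these genes except where SMAD7 was close to 0. The theca markers separated most libraries by layer. The summed level of 8 theca markers was 4905 to 8072 FPKM in the TC libraries. It was at most 81.6 FPKM in 23 of the 27 GC libraries. The 4 others were bic GC F5 replicate 2 (7692 FPKM, with a granulosa marker sum of 275 FPKM), NC GC 6mm replicates 1 and 3 (1544 and 918 FPKM) and bic GC 6mm replicate 1 (1389 FPKM). In the opposite direction, the summed level of 6 granulosa markers was 1147 FPKM in bic TC F5 replicate 1, 647 and 1069 FPKM in NC TC F5 replicates 2 and 3 and 790 FPKM in NC TC F1 replicate 1, against at most 515 FPKM in the other 23 TC libraries. FOXL2, a granulosa transcription factor, was at 149.7 to 340.1 FPKM in all TC libraries. The granulosa sum of the NC 6mm libraries was 419 to 515 FPKM in TC and 745 to 1078 FPKM in GC. FOXL2, FSHR, INHA, GATA4 and CDH2 of that list had higher medians in GC than in TC at every stage. In addition, bic GC 6mm replicate 2 had AMH, a hormone of immature granulosa cells, at 0.587 FPKM, whereas the median of the 9 GC 6mm libraries was 207 FPKM. The AMH median of the 9 TC 6mm libraries was 223 FPKM, so that AMH did not separate the layers. At F5 and F1 its TC medians (10.2 and 5.87 FPKM) lay above its GC medians (3.82 and 0.261 FPKM). Some NC called results of the 7 genes touch the NC libraries with high theca markers or the NC TC F5 libraries. They are given without those libraries where the call was lost. Leaving out NC GC 6mm replicates 1 and 3, or NC TC F5 replicates 2 and 3, left 1 hen in that group. The same holds where 1 of the 2 NC GC F1 hens was left out. In such fits the spread comes from the other hens, so that a p-value does not measure that group. In whole layers, fewer cells of a type cannot be told apart from less RNA per cell.

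All 7 genes were expressed in both layers (the plot of levels by library), but their order differed between layers. In GC libraries ID2 had the highest median, 245 FPKM (78.8 to 640.0), followed by BAMBI at 123 FPKM (31.7 to 395), ID3 at 83.1 FPKM (15.1 to 269) and ID1 at 57.7 FPKM (14.3 to 501). ID4 (median 31.0 FPKM), SMAD7 (18.3 FPKM) and SMAD6 (13.8 FPKM) were lower in GC libraries and covered the widest ranges, 1.19 to 176 FPKM for ID4 and 0 to 153 FPKM for SMAD7. In TC libraries ID2, ID3 and ID1 stood close together with medians of 181, 162 and 158 FPKM. ID4 (58.8 FPKM), SMAD7 (35.1 FPKM), SMAD6 (27.8 FPKM) and BAMBI (23.7 FPKM) followed, so that BAMBI moved from the second place in GC to the last in TC.

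**Figure D1:**
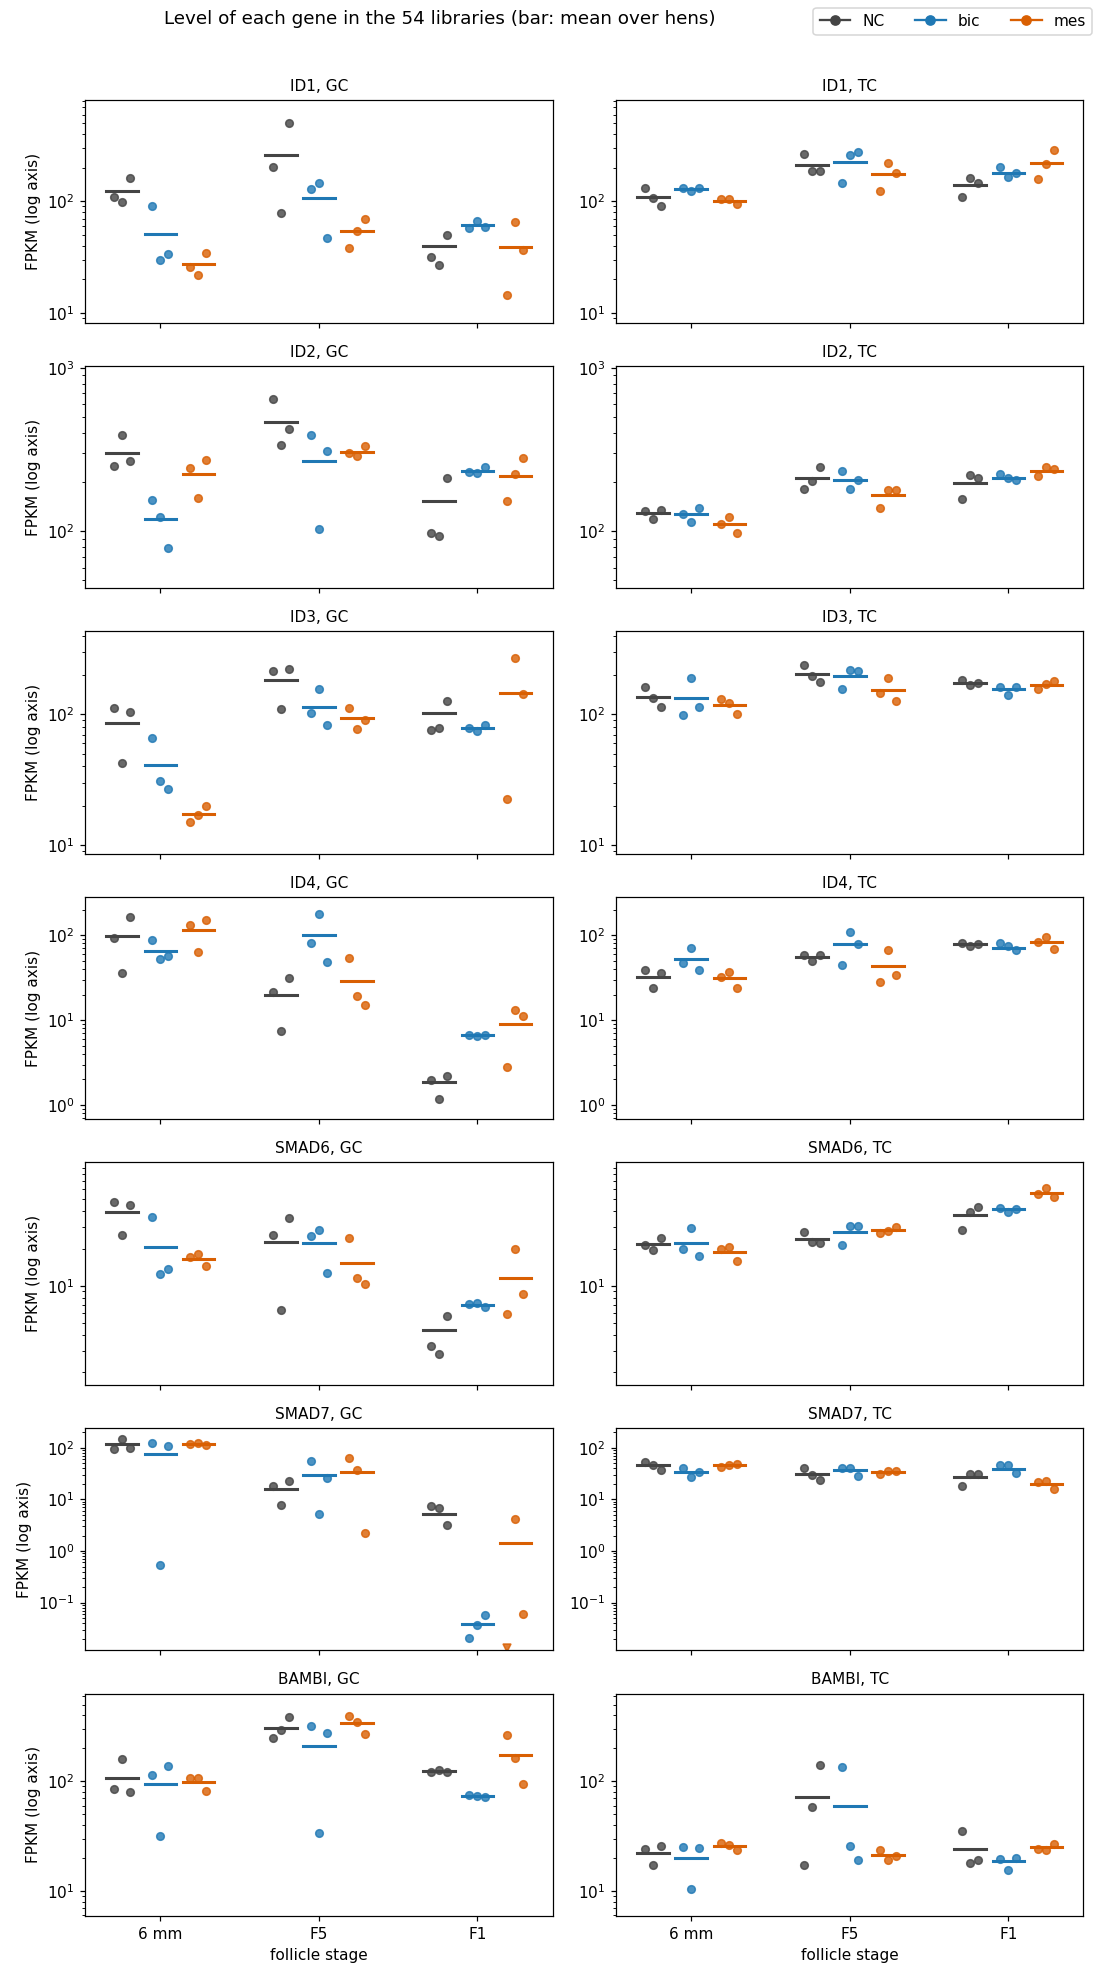
FPKM (log axis) of the 7 genes in each of the 54 libraries, by follicle stage, with GC on the left and TC on the right; points are libraries, bars are means over hens, colours are treatments, and a triangle marks a value of 0. ID4, SMAD6 and SMAD7 run downward from 6mm to F1 in GC and ID4 and SMAD6 run upward in TC, while BAMBI lies lower in TC than in GC at most points.

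The number of these genes that passed the test (edgeR quasi-likelihood, adjusted p at most 0.05 and a mean of at least 1 FPKM in either group) was read against the share of all tested genes that passed it in the same comparison. That share belongs to this test alone. It is not given for counts at an unadjusted p below 0.05, for DESeq2 or for other scalings and fits, so that those counts cannot be read against it. In NC GCs, 2 of 7 passed between F5 and 6mm where 9.11% of all genes did, 1 of 7 between F1 and F5 (29.9% of all genes) and 3 of 7 between F1 and 6mm (29% of all genes). In NC TCs the test was passed by 3 of 7 for F5 against 6mm (7.62% of all genes), 2 of 7 between F1 and F5 (6.34%) and 4 of 7 between F1 and 6mm (18.4%). With counts scaled by library size alone, an alternative chosen after seeing the data, there were 10 calls in the NC GCs and 5 in the NC TCs in all. The directions were opposite. Of the 6 calls in GCs, 5 were lower in the more mature follicle, and all 9 calls in TCs were higher in the more mature follicle. Between the NC layers, 3 of 7 passed at 6mm (27% of all genes), 3 of 7 at F5 (36%) and 5 of 7 at F1 (37%). Without the filter on low counts, 1 of 7 passed at F5. Lack of overlap between the hens of 2 stages was common among all tested genes. It held for 39% (F5 against 6mm), 65.1% (F1 against F5) and 68.9% (F1 against 6mm) in NC GCs. In NC TCs the shares were 38.8%, 33.3% and 43.3% in the same order.

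**Figure D2:**
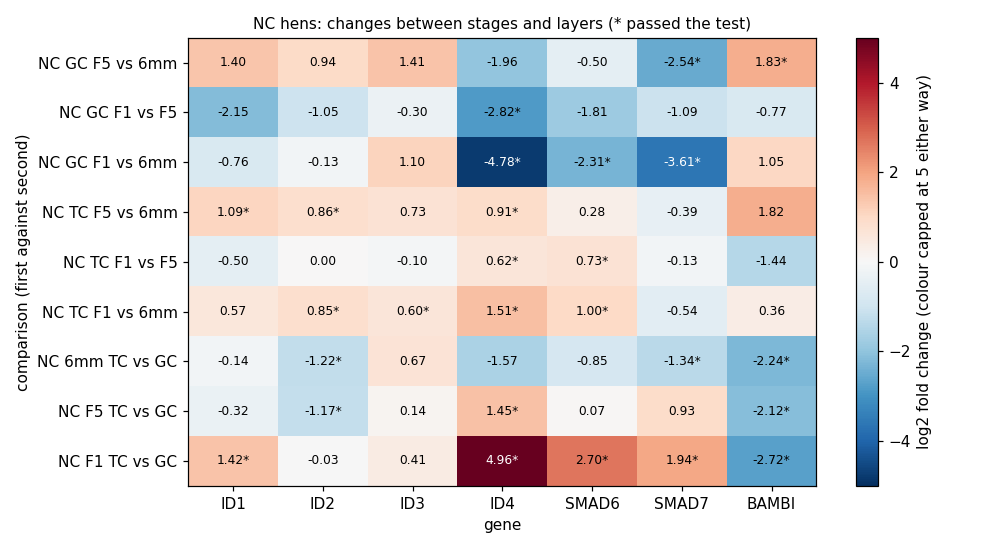
Log2 fold change of the 7 genes (columns) in the 9 comparisons within NC hens (rows: stages in GC, stages in TC, TC against GC); red is higher and blue lower in the group named first, and an asterisk marks a change that passed the test. The 6 calls for stages in GC are BAMBI at F5 and 5 blue cells of ID4, SMAD6 and SMAD7, and the 9 calls for stages in TC are all red.

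ID1, ID2 and ID3, the more abundant ID genes, rose with follicle growth in NC TCs. ID1 was at 133, 107 and 90.9 FPKM in the 3 hens at 6mm, at 264, 186 and 189 FPKM at F5 and at 109, 162 and 147 FPKM at F1. Every F5 value lay above every 6mm value, and F1 overlapped with 6mm. The rise to F5 was 2.13-fold (log2 1.09, SE 0.20, adjusted p = 0.0391), and F1 against 6mm gave log2 0.57, which did not pass. ID2 was at 132, 119 and 134 FPKM at 6mm, 181, 203 and 248 FPKM at F5 and 157, 222 and 212 FPKM at F1. Both later stages were above 6mm in every hen, by 1.81-fold at F5 (adjusted p = 0.0391) and 1.80-fold at F1 (adjusted p = 0.0156). ID3 was at 161, 133 and 114 FPKM at 6mm and at 184, 169 and 173 FPKM at F1, a rise of 1.52-fold (log2 0.60, SE 0.16, adjusted p = 0.0459) with no overlap between hens. All of the F5 calls of ID1, ID2 and ID4 in NC TCs were lost when the hen was added as a block (adjusted p = 0.0845, 0.0852 and 0.0852), and they were also lost without the 2 NC TC F5 libraries with high granulosa markers, where log2 was 1.39, 0.62 and 0.97. With library size scaling ID3 did not pass between F1 and 6mm (log2 0.35, adjusted p = 0.154). Leaving out 1 hen lost the F5 call of ID1 and of ID2 in 5 of 6 fits each (adjusted p up to 0.154), all but the fit without F5 hen 1. It lost the F1 call of ID3 in 5 of 6 fits (up to 0.149), all but the fit without 6mm hen 1, and that of ID2 in the fits without 6mm hen 2 or 3 (up to 0.0569). With the block, ID2 and ID3 still passed between F1 and 6mm (adjusted p = 0.0365 and 0.0455).

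In NC GCs none of ID1, ID2 and ID3 passed the test between stages. DESeq2 called ID2 and ID3 between F5 and 6mm (log2 0.90 and 1.37, adjusted p = 0.0355 and 0.0159) and ID1 between F1 and F5 (log2 -2.19, adjusted p = 0.01). With library size scaling ID1 passed between F1 and 6mm (log2 -1.65, adjusted p = 0.0224), and ID1 and ID2 between F1 and F5 (log2 -2.72 and -1.61, adjusted p = 0.045 and 0.0382). ID1 was at 109, 98.4 and 162 FPKM at 6mm, at 202, 77.8 and 501 FPKM at F5 and at 31.8, 26.7 and 49.996 FPKM in the F1 libraries, the first 2 from 1 hen. F1 was the lowest stage in every library, F5 held both the highest value and one below all 6mm values, and F1 against F5 gave log2 -2.15 (SE 0.79, adjusted p = 0.0821). ID3 was at 111, 42.7 and 103 FPKM at 6mm, 213, 109.6 and 223 FPKM at F5 and 75.5, 78.3 and 126 FPKM at F1. The low 6mm value belonged to hen 2, the hen whose GC 6mm library had a theca marker sum of 28.5 FPKM. ID2 was at 251, 386 and 270.1 FPKM at 6mm, 640.0, 336 and 421 FPKM at F5 and 97.5, 93.4 and 212 FPKM at F1, again lowest at F1. Between layers, ID2 was the member of this trio with more RNA in GC: it was 2.33-fold lower in TC than in GC at 6mm (log2 -1.22, SE 0.21, adjusted p = 0.0103) and 2.26-fold lower at F5 (adjusted p = 0.0184, 0.0544 with the hen as a block, and 0.127 without the 2 NC TC F5 libraries with high granulosa markers). ID1 was 2.67-fold higher in TC than in GC at F1 (adjusted p = 0.0176, and 0.0633 with the block). Leaving out 1 hen lost the call of ID2 in 3 of 6 fits at 6mm (each TC hen, adjusted p up to 0.0801) and in 2 of 6 at F5 (TC hens 1 and 2, up to 0.0762), and that of ID1 in 3 of 5 fits (GC hen 2, TC hens 2 and 3, up to 0.0709). ID3 differed by log2 0.67 at 6mm, which did not pass with all hens. NC GC 6mm replicates 1 and 3 were the libraries with high theca markers, and without them the difference of ID3 was log2 1.75. This left hen 2 alone in that group, the hen with the lowest ID3 level at 6mm, so that the value is a description. The part of theca cells in the 6mm levels of ID3 in GC was not tested.

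ID4, the least abundant ID gene in TC, had the largest called differences among the ID genes in NC hens, both between stages and between layers. In NC GCs it was at 93.1, 36.2 and 164 FPKM at 6mm, at 21.5, 7.38 and 31.0 FPKM at F5, and at 1.97, 1.19 and 2.19 FPKM in the F1 libraries. The 3 stages did not overlap, which held for 39% to 68.9% of all tested genes in a pair of them. ID4 fell 27.4-fold from 6mm to F1 (log2 -4.78, SE 0.73, adjusted p = 0.00928) and 7.04-fold from F5 to F1 (log2 -2.82, SE 0.67, adjusted p = 0.0237), while F5 against 6mm gave log2 -1.96 and did not pass (adjusted p = 0.102). With the hen as a block, the F1 against 6mm call was lost (log2 -4.44, adjusted p = 0.0637), F1 against F5 held (adjusted p = 0.0499) and F5 against 6mm passed (log2 -1.94, adjusted p = 0.0251). Without F1 hen 2 or F1 hen 3 the fall from 6mm did not pass (adjusted p up to 0.062), and that from F5 did not pass in 4 of 5 fits without 1 hen (up to 0.108), all but the fit without F5 hen 2. In NC TCs the order of stages was reversed: ID4 was at 38.7, 23.5 and 35.4 FPKM at 6mm, 58.7, 49.1 and 58.8 FPKM at F5 and 81.2, 75.1 and 79.2 FPKM at F1, again with no overlap between stages. The rise from 6mm to F1 was 2.85-fold (log2 1.51, SE 0.21, adjusted p = 0.00931) and passed in 6 of 6 fits that left out 1 hen. The step from 6mm to F5 (1.88-fold, adjusted p = 0.0471) and that from F5 to F1 (1.53-fold, adjusted p = 0.0475) passed in none of these fits (adjusted p up to 0.155 and 0.179). The step from F5 to F1 was also lost without the 2 NC TC F5 libraries with high granulosa markers (adjusted p = 0.493), without the filter on low counts (0.0615), with library size scaling (0.0653) and with the hen as a block (0.111), and the step from 6mm to F5 with library size scaling (0.059). At F1 the mean level of ID4 was 78.5 ± 3.14 FPKM in TC (SD, n = 3) and 1.89 ± 0.427 FPKM in GC (SD, n = 2), a 31.1-fold difference (log2 4.96, SE 0.22, adjusted p = 0.00292) that passed whichever hen was left out. At F5 ID4 was 2.73-fold higher in TC than in GC (log2 1.45, SE 0.47, adjusted p = 0.0465), a call lost without GC hen 1 or any 1 of the TC hens (adjusted p up to 0.108), and without the 2 TC libraries with high granulosa markers (adjusted p = 0.238). At 6mm the mean was lower in TC (32.5 ± 7.96 against 97.8 ± 64.2 FPKM, SD, n = 3 each), but this did not pass (log2 -1.57, adjusted p = 0.072), and without NC GC 6mm replicates 1 and 3 it was log2 -0.07.

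SMAD6, the inhibitory SMAD that acts chiefly on BMP receptors, followed ID4 in direction with smaller changes. In NC GCs it was at 47.4, 25.7 and 45.0 FPKM at 6mm, 25.8, 6.33 and 35.2 FPKM at F5 and 3.24, 2.79 and 5.71 FPKM at F1. Values at 6mm and F5 overlapped and those at F1 lay below both. The fall from 6mm to F1 was 4.97-fold (log2 -2.31, SE 0.42, adjusted p = 0.0142), and it did not pass with the hen as a block (adjusted p = 0.0571), without F1 hen 2 (adjusted p = 0.0706) or without NC GC 6mm replicates 1 and 3 (log2 -1.77, adjusted p = 0.121). In NC TCs SMAD6 was at 21.5, 19.5 and 24.2 FPKM at 6mm, 27.2, 22.5 and 22.3 FPKM at F5 and 28.4, 39.3 and 43.5 FPKM at F1. The F1 hens were above all others, by 2.01-fold against 6mm (log2 1.00, SE 0.18, adjusted p = 0.0152) and by 1.66-fold against F5 (adjusted p = 0.0493, 0.146 with the block, 0.0615 without the filter, 0.106 with library size scaling and 0.542 without the 2 NC TC F5 libraries with high granulosa markers). The latter passed only in the fit without F1 hen 1 (up to 0.179 in the others), and the former was lost without 6mm hen 2 (adjusted p = 0.0563). At F1 SMAD6 was 6.48-fold higher in TC than in GC (log2 2.70, SE 0.34, adjusted p = 0.00789), whereas the layers were not separated by the test at 6mm (log2 -0.85, adjusted p = 0.0602) or F5 (log2 0.07).

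SMAD7, the inhibitor with the broader target range, had its highest levels in the GCs of 6 mm follicles. In NC GCs it was at 97.5, 153 and 102 FPKM at 6mm, 18.3, 7.99 and 22.5 FPKM at F5 and 7.502, 6.79 and 3.16 FPKM at F1. No stage overlapped with another, which held for 39% to 68.9% of all tested genes in a pair of these stages. SMAD7 fell 5.81-fold from 6mm to F5 (log2 -2.54, SE 0.42, adjusted p = 0.0244) and 12.2-fold from 6mm to F1 (log2 -3.61, SE 0.55, adjusted p = 0.00885). The latter call held in 5 of 5 fits without 1 hen. It was at adjusted p = 0.0546 with the hen as a block, where F5 against 6mm was at 0.0519. Without NC GC 6mm replicates 1 and 3, which left 1 hen at 6mm, F1 against 6mm gave log2 -4.10. With all GC hens in 1 fit both were lost (adjusted p = 0.167 and 0.337 for F1 and F5 against 6mm). F5 against 6mm was lost in 5 of 6 fits without 1 hen (adjusted p up to 0.0867), all but the fit without 6mm hen 2, and without NC GC 6mm replicates 1 and 3 (log2 -2.99, adjusted p = 0.148). In NC TCs SMAD7 was at 53.2, 46.0 and 37.9 FPKM at 6mm, 40.1, 30.4 and 24.3 FPKM at F5 and 17.9, 31.2 and 31.5 FPKM at F1. F1 lay below 6mm in every hen, but the difference did not pass (log2 -0.54, adjusted p = 0.162). The layer difference changed sign along growth: SMAD7 was 2.54-fold lower in TC than in GC at 6mm (log2 -1.34, SE 0.25, adjusted p = 0.0138) and 3.84-fold higher in TC at F1 (log2 1.94, SE 0.49, adjusted p = 0.0313, and 0.0624 with the block). The former was lost without any 1 of the TC 6mm hens (adjusted p up to 0.086), the latter without GC hen 3, TC hen 2 or TC hen 3 (up to 0.0746).

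BAMBI, the pseudoreceptor, was the member that marked the granulosa side at every stage. In NC GCs it was at 84.8, 158 and 79.5 FPKM at 6mm, 246, 291 and 383 FPKM at F5 and 121, 126 and 123 FPKM at F1. F5 was above both other stages in every library, and 3.56-fold above 6mm (log2 1.83, SE 0.35, adjusted p = 0.0316). That call was lost in 5 of 6 fits without 1 hen (adjusted p up to 0.122), all but the fit without 6mm hen 2, and without NC GC 6mm replicates 1 and 3 (log2 1.20, adjusted p = 0.263), and with all GC hens in 1 fit (log2 1.80, adjusted p = 0.111). In NC TCs BAMBI was at 24.2, 17.1 and 25.9 FPKM at 6mm, 17.5, 57.8 and 139 FPKM at F5 and 35.6, 17.9 and 19.0 FPKM at F1. The 2 high F5 values and the highest F1 value were in the TC libraries with high granulosa markers, and bic TC F5 replicate 1, with the highest granulosa sum, held 135 FPKM against 25.7 and 19.3 FPKM in the other bic TC F5 libraries. BAMBI was 4.74-fold lower in TC than in GC at 6mm (log2 -2.24, SE 0.33, adjusted p = 0.00706), 4.35-fold lower at F5 (log2 -2.12, SE 0.69, adjusted p = 0.0469) and 6.61-fold lower at F1 (log2 -2.72, SE 0.39, adjusted p = 0.00995). Without the 2 high NC TC F5 libraries, which left 1 TC hen, the difference at F5 was log2 -4.19. With both of them kept, the difference did not pass without TC F5 hen 2 or any 1 of the GC F5 hens (adjusted p up to 0.145). At 6mm and F1 it passed whichever hen was left out.

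**Figure D3:**
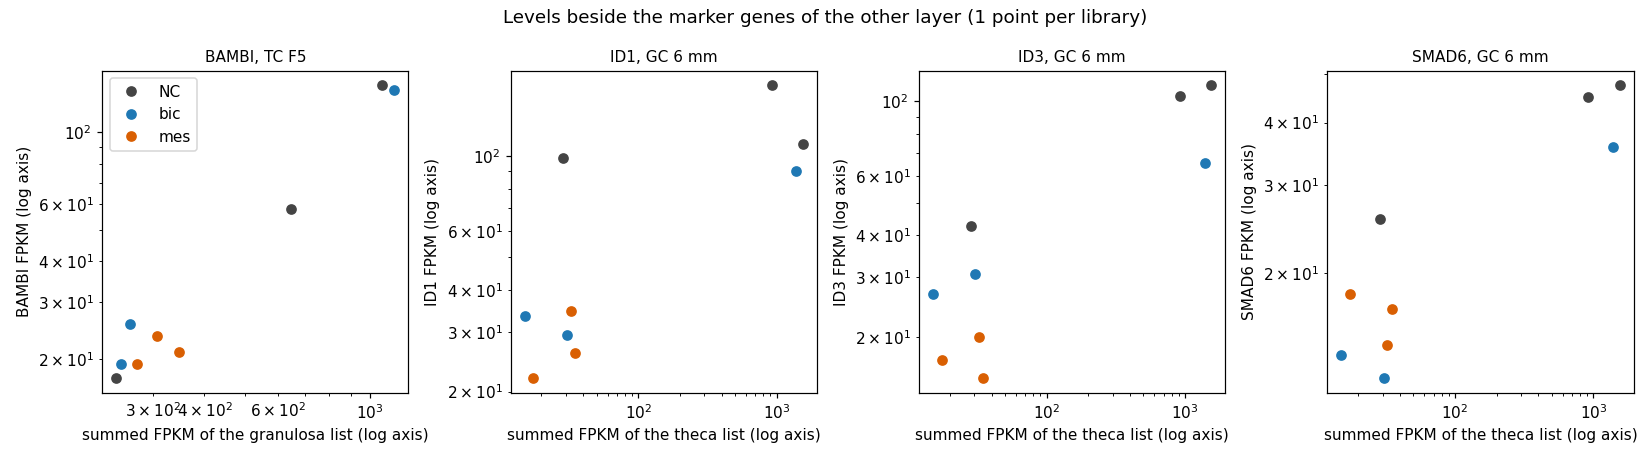
Each point is 1 library: BAMBI in TC F5 libraries against the summed FPKM of 6 granulosa markers, and ID1, ID3 and SMAD6 in GC 6mm libraries against the summed FPKM of 8 theca markers (all axes log), coloured by treatment. The 3 TC F5 libraries with granulosa sums of 647 to 1147 FPKM have the 3 highest BAMBI levels, and the 3 GC 6mm libraries with theca sums of 918 to 1544 FPKM have the 3 highest SMAD6 levels.

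Markers of other cells also moved with the stages of the NC hens. In GC, 8 endothelial genes summed to 86.2 to 133 FPKM at 6mm, 47.6 to 63.1 FPKM at F5 and 19.9 to 37.2 FPKM at F1, and 5 oocyte genes to 23.7 to 131, 0.265 to 1.85 and 0.0542 to 0.38 FPKM. EGFL7 was the largest part of the endothelial sum in GC. Over the GC 6mm libraries of all treatments its median was 72.4 FPKM, against 52.9 FPKM in TC. There the GC medians of PECAM1 and TIE1 were 9.88 and 3.62 FPKM. Those of CDH5, KDR, TEK, ERG and VWF were at most 0.907 FPKM. Of the blood list, the 4 haemoglobin genes summed to at most 12.1 FPKM in GC at any stage. HEMGN, a further gene of that list, was at 523 to 709 FPKM at 6mm, 484 to 784 FPKM at F5 and 11.0 to 44.1 FPKM at F1, so that it did not follow the haemoglobins. In TC, the haemoglobin sum was 31.9 to 61.6 FPKM at 6mm, 110.2 to 146 FPKM at F5 and 232 to 309.9 FPKM at F1, the endothelial sum 245 to 306, 124 to 165 and 173 to 263 FPKM, and 6 smooth muscle genes summed to 3243 to 3615, 4744 to 5830 and 5222 to 7139 FPKM. The endothelial and oocyte sums in GC were lowest at F1, as were ID1, ID2, ID4, SMAD6 and SMAD7, and the haemoglobin and smooth muscle sums in TC reached their highest values at F1, as did ID4 and SMAD6. The part of these cells in the levels of the 7 genes was not tested.

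Whether a stage change differed between the layers was tested directly in the NC hens, in 1 fit of both layers. Between F5 and 6mm, 2 of 7 genes passed (7.72% of all genes). The change of ID4 in GC less that in TC was log2 -2.87 (SE 0.68, adjusted p = 0.0233), and that of SMAD7 was log2 -2.16 (SE 0.56, adjusted p = 0.0329). Between F1 and F5, 2 of 7 passed (18.9% of all genes), ID4 with log2 -3.55 (SE 0.75, adjusted p = 0.00475) and SMAD6 with log2 -2.67 (SE 0.69, adjusted p = 0.0141). In each of these the more mature GC was lower relative to its earlier stage than the matching TC. BAMBI, ID1, ID2 and ID3 did not pass in either contrast. The ID4 difference between F1 and F5 passed in 17 of 17 fits without 1 hen, and that of SMAD6 in 16, with adjusted p = 0.0843 without GC F1 hen 2. Between F5 and 6mm, ID4 was lost without GC 6mm hen 3, TC 6mm hen 2 or TC 6mm hen 3 (adjusted p up to 0.0673). SMAD7 was lost without GC 6mm hen 3, any 1 of the TC 6mm hens, TC F5 hen 1 or TC F5 hen 2 (up to 0.0865), and with the hen as a block (0.0582). None of the 4 passed once both NC TC F5 libraries with high granulosa markers were left out, which left 1 hen in that group, with log2 values of -2.92, -2.47, -3.50 and -2.52 for the contrasts in the order given.

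The stage changes were also taken within the treated hens. Under mes, 4 of 7 members were called in GCs for F5 against 6mm (24.6% of all genes), 0 of 7 between F1 and F5 (18.2%) and 3 of 7 between F1 and 6mm (34.9%). With all GC hens in 1 fit, 1 of 7 was called for F5 against 6mm and 3 of 7 for F1 against 6mm. The share of all genes called in that fit is not given here. ID3 was at 15.1, 17.1 and 20.03 FPKM at 6mm, 112, 76.8 and 91.0 FPKM at F5 and 22.4, 269 and 142 FPKM at F1. All later values lay above all 6mm values, where 50.7% (F5) and 63.1% (F1) of all tested genes did not overlap with 6mm. The rises were 6.31-fold at F5 (log2 2.66, SE 0.18, adjusted p = 0.000552) and 12.1-fold at F1 (log2 3.60, SE 0.88, adjusted p = 0.0208, and 0.0674 with the hen as a block). BAMBI rose 3.99-fold from 6mm to F5 (108, 106 and 82.5 against 395, 344 and 272 FPKM, adjusted p = 0.00123), ID1 rose 2.30-fold and ID2 rose 1.61-fold in the same comparison (adjusted p = 0.143 for ID2 with library size scaling). ID4 fell 8.87-fold from 6mm (130.4, 62.8 and 150.4 FPKM) to F1 (2.80, 12.99 and 11.1 FPKM, adjusted p = 0.0134). At 0 calls between F1 and F5, no member had an unadjusted p below 0.05 and DESeq2 also called 0. SMAD7 was at 121, 123 and 115 FPKM in the mes GCs at 6mm, at 64.0, 37.4 and 2.24 FPKM at F5 and at 0, 4.14 and 0.0612 FPKM at F1, so that F1 lay below 6mm in all hens and varied too widely for the test to pass (log2 -5.83, SE 2.14, adjusted p = 0.0707).

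In the TCs of mes hens the test called 0 of 7 for F5 against 6mm (0.0707% of all genes), 3 of 7 between F1 and F5 (15.1%) and 6 of 7 between F1 and 6mm (23.5%). For F5 against 6mm, 5 members had an unadjusted p below 0.05 and DESeq2 called 3, where the shares of all genes are not given here. From 6mm to F1, SMAD6 rose 3.43-fold (19.7, 20.8 and 15.9 against 54.9, 61.9 and 52.5 FPKM, adjusted p = 0.00142), ID4 rose 3.05-fold (31.9, 37.1 and 24.2 against 83.5, 95.8 and 69.2 FPKM, adjusted p = 0.00396), and ID1, ID2 and ID3 rose 2.48-, 2.43- and 1.64-fold. SMAD7 fell 1.98-fold (42.8, 45.7 and 48.6 against 21.8, 22.7 and 16.2 FPKM, adjusted p = 0.00848), the only fall among them. No hen of one stage overlapped with the other in these 6 genes, where 47.1% of all tested genes did not overlap. BAMBI gave log2 0.15. Whether these changes differed from those of NC hens is tested below.

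In bic GCs no gene of the whole table passed between any 2 stages (0% of all genes), with the F1 group being 1 hen and the libraries named above in the other groups. Unadjusted p-values below 0.05 were reached by 1, 2 and 1 members for F5 against 6mm, F1 against F5 and F1 against 6mm, and DESeq2 called 0, 2 and 2. SMAD7 was at 123, 0.531 and 107 FPKM at 6mm, at 57.0, 5.30 and 26.7 FPKM at F5 and at 0.0208, 0.0372 and 0.0563 FPKM in the 3 libraries of the F1 hen. The 2 low values at 6mm and F5 belonged to bic GC 6mm replicate 2 and bic GC F5 replicate 2. Without these libraries SMAD7 at F1 was log2 -11.09 below 6mm (adjusted p = 0.0450) and log2 -9.89 below F5 (adjusted p = 0.0274). This left 2 hens against the 1 F1 hen, which is assumed to vary like them, and the libraries left out were the lowest for SMAD7 in their groups, so that these values are a description. ID4 was then log2 -3.08 lower at F1 than at F5. BAMBI was log2 1.45 higher at F5 than at 6mm (adjusted p = 0.0273) and log2 -1.82 lower at F1 than at F5. The share of all genes that passed in these fits is not given here, so that these values are a description as well. In the TCs of bic hens the test called 1 of 7 for F5 against 6mm (12.8% of all genes), 0 between F1 and F5 (2.33%, with 1 unadjusted p below 0.05 and 1 call by DESeq2) and 1 between F1 and 6mm (2.3%). Both calls were ID2, which rose 1.79-fold from 6mm (128, 114 and 138 FPKM) to F5 (235, 182 and 205 FPKM, adjusted p = 0.021, and 0.0667 with the block) and 1.83-fold to F1 (222, 211 and 205 FPKM, adjusted p = 0.0419, and 0.0611 with library size scaling). With the hen as a block, F1 against 6mm in bic TCs also passed for ID1, ID3, ID4 and SMAD6 (log2 0.63, 0.74, 0.91 and 1.34, adjusted p = 0.0116 to 0.0212). The F1 group was 2 hens, and the share of all genes that passed with the block is not given here. These calls therefore cannot be read as particular to these genes.

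The layers were also compared within the treated hens. In bic hens, with 1 GC hen against 2 TC hens at F1, 6 of 7 genes passed at F1 (37.8% of all genes, and 3 of 7, namely ID4, SMAD6 and SMAD7, with all hens in 1 fit), 0 at 6mm (2.66%, with 3 unadjusted p-values below 0.05 and 3 calls by DESeq2) and 0 at F5 (0.012%, with 1 and 1). For these bic comparisons the shares of all genes at an unadjusted p below 0.05 or called by DESeq2 are not given here. In mes hens 6 of 7 passed at 6mm (47.1%), 4 at F5 (46.8%) and 4 at F1 (37.6%). At F1, ID4 was 9.56-fold and SMAD6 5.22-fold higher in bic TC than in bic GC, and 8.20-fold and 4.33-fold higher in mes TC than in mes GC. BAMBI was lower in TC than in GC by 4.43-fold in bic hens at F1 and by 3.65-, 16.6- and 7.54-fold in mes hens at 6mm, F5 and F1. ID3 showed the largest layer difference of the mes 6mm follicles, with 131, 122 and 100.8 FPKM in TC and 15.1, 17.1 and 20.03 FPKM in GC, a 7.16-fold difference (log2 2.84, SE 0.16, adjusted p = 4.48e-05). ID4 in the same follicles was 3.48-fold lower in TC than in GC (adjusted p = 0.00421), opposite to its direction at F1, where it was higher in TC.

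No difference of the 7 genes between a compound and NC passed the test. For bic against NC, 0 of 42 tests passed, with 6 at an unadjusted p below 0.05 and 2 called by DESeq2. For mes against NC, 0 of 42 passed, with 10 and 5. The shares of all genes at an unadjusted p below 0.05 or called by DESeq2 are not given here. The share of all genes that passed was 0% for bic against NC in GC at 6mm and F5 and in TC at F5 and F1, 1.17% in GC at F1 and 0.0296% in TC at 6mm. For mes against NC it was 0% in GC at all stages and in TC at F1, 0.0354% in TC at 6mm and 0.0122% in TC at F5. The largest difference was that of SMAD7 in GCs at F1. The NC libraries held 2274, 1411 and 747 counts of SMAD7, the bic libraries 9, 10 and 17, and the mes libraries 0, 1140 and 20. All 3 bic libraries, from 1 hen, lay below all NC libraries, and 1 mes library lay among the NC libraries while the other 2 lay with the bic hen. Between the bic hen and the 2 NC hens, 83% of all tested genes and 6 of these 7 did not overlap. The bic hen was 153-fold below the 2 NC hens (log2 -7.25, SE 0.91, unadjusted p = 0.0019, adjusted p = 0.0589). It passed with no filter on low counts (adjusted p = 0.0348) and did not with RLE size factors (0.0581) or with all GC hens in 1 fit (0.207). For mes the same contrast gave log2 -2.02 (SE 2.21), and the adjusted p was 0.722 to 0.853 in 4 of 5 fits without 1 hen. In the other, without mes hen 2, the only mes hen with SMAD7 counts like those of NC, it was 0.0438 (log2 -7.59).

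Differences from NC also stood out beside their error for ID1, ID3 and SMAD6 in the GCs of 6 mm follicles under mes. ID1 was at 26.0, 21.9 and 34.7 FPKM in the mes hens against 109, 98.4 and 162 FPKM in the NC hens, ID3 at 15.1, 17.1 and 20.03 against 111, 42.7 and 103 FPKM, and SMAD6 at 17.0, 18.2 and 14.4 against 47.4, 25.7 and 45.0 FPKM. Every mes hen was below every NC hen for these 3 genes. In this comparison 32.3% of all tested genes did not overlap between the groups, and 0% passed the test. The log2 differences were -2.13 (SE 0.24), -2.27 (SE 0.37) and -1.22 (SE 0.26), each with an adjusted p of 0.143. All 3 were called by DESeq2 (adjusted p of at most 0.0019) and by edgeR when NC GC 6mm hen 2 was left out (adjusted p = 0.0078, 0.00416 and 0.00875). The share of all genes called in those fits is not given here, so that these calls cannot be read as particular to the 3 genes. NC GC 6mm hen 2 had the low theca marker sum, and with the other 2 NC hens left out instead the differences were log2 -1.85, -1.30 and -0.64. The same-stage bic GC libraries were at 90.2, 29.5 and 33.5 FPKM for ID1, where the first is the library with high theca markers, and at 156, 123 and 78.8 FPKM for ID2, against 251, 386 and 270.1 FPKM in NC. All bic hens lay below all NC hens for both genes (14.3% of all tested genes did not overlap), and neither passed (log2 -1.17 and -1.19, SE 0.43 and 0.37, adjusted p = 0.785 each). In GCs at F5, ID1 was log2 -2.33 lower under mes (38.0, 54.2 and 68.8 against 202, 77.8 and 501 FPKM, adjusted p = 0.282), and ID4 was log2 2.24 higher under bic (80.1, 176 and 48.2 against 21.5, 7.38 and 31.0 FPKM, adjusted p = 0.513, or log2 1.67 without the theca-like bic library). In TCs the 2 differences farthest from 0 were BAMBI at F5 under mes (log2 -1.86, adjusted p = 0.45, and log2 0.21 without the 2 NC libraries with high granulosa markers) and ID4 at 6mm under bic (log2 0.75, adjusted p = 0.863).

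**Figure D4:**
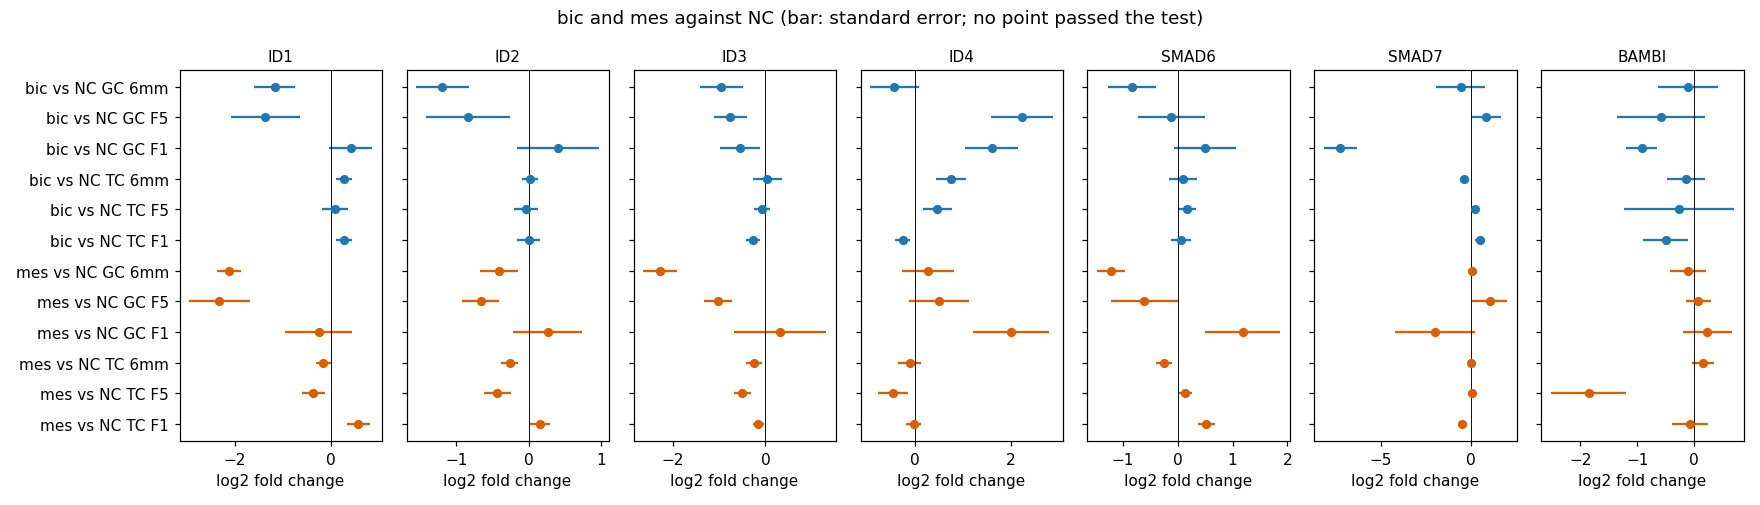
Log2 fold change of each gene (panels) for bic (blue) and mes (orange) against NC in each layer and stage (rows). Bars are standard errors derived from the fold change and the F value of the edgeR test. No point passed the test, and SMAD7 in GC at F1 under bic lies farthest from 0 at log2 -7.25.

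The difference of a stage change between a treatment and NC was tested in 8 contrasts, and 0 of 56 tests passed. The share of all genes that passed was 3.76% for bic in GC and 0.708% for mes in GC between F1 and F5, 0.0263% for bic in TC between F1 and F5 and 0% in the other 5 contrasts. DESeq2 called 1 of the 56, SMAD7 for bic less NC in GC between F1 and F5 (log2 -8.27, adjusted p = 0.0121, against 0.22 by edgeR). Between 0 and 2 of the 7 genes had an unadjusted p below 0.05 in each contrast.

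Ordered by mean level over the 18 groups, neighbouring groups rarely separated. All hens of a group lay above all hens of the next lower group in 2 of 17 steps for ID1, ID3 and SMAD6, in 1 step for ID2, ID4 and SMAD7 and in 0 for BAMBI. The highest and lowest group means were 260.5 FPKM (NC GC F5) and 27.6 FPKM (mes GC 6mm) for ID1, 466 FPKM (NC GC F5) and 110.1 FPKM (mes TC 6mm) for ID2, and 205 FPKM (NC TC F5) and 17.4 FPKM (mes GC 6mm) for ID3. For ID4 they were 114 FPKM (mes GC 6mm) and 1.89 FPKM (NC GC F1), and for SMAD6 56.4 FPKM (mes TC F1) and 4.36 FPKM (NC GC F1). SMAD7 ranged from 119.7 FPKM (mes GC 6mm) to 0.0381 FPKM (the bic hen at GC F1) and BAMBI from 337 FPKM (mes GC F5) to 18.8 FPKM (bic TC F1). ID4 was thus highest in the same group in which ID1 and ID3 were lowest.

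As a description over the 18 group means of log2(FPKM + 1), which share layers and libraries, ID4 went with SMAD6 (Pearson r = 0.84) and SMAD7 (r = 0.79), ID1 with ID3 (r = 0.76) and SMAD6 (r = 0.71), and ID2 with BAMBI (r = 0.63). Within the 9 GC means, ID4 went with SMAD6 (r = 0.86) and SMAD7 (r = 0.85). Within the 9 TC means, ID1, ID2 and ID3 went together (r = 0.85 to 0.90), and SMAD7 ran opposite to SMAD6 (r = -0.75) and ID4 (r = -0.70), so that the inhibitory SMADs ran together in GC (r = 0.74) and apart in TC. Among 10948 genes with a symbol, the nearest to ID1 were ARPC3 (0.89), MANSC1 (0.88) and RPS27 (0.86), and to ID2 PHOSPHO1 (0.81), VDR (0.80) and SNTB2 (0.79). The nearest to ID3 were RPS13 (0.92), TPM2 (0.92) and RPS10 (0.91), and to ID4 PPP1R3C (0.94), WDR47 (0.93) and CARHSP1 (0.93). DHRS4 (0.92), CASP1 (0.91) and IRF2 (0.90) were nearest to SMAD6, DTYMK (0.94), ARHGAP8 (0.93) and LYRM1 (0.93) to SMAD7, and SLC25A51 (0.97), CLSTN1 (0.96) and RBMS2 (0.96) to BAMBI. By Spearman correlation only ARPC3 for ID1 and PHOSPHO1 for ID2 stayed among the nearest 3.

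The rest of the pathway was followed in the NC hens with 6 lists of 57 genes. The calls of these lists are from the main fits only, with NC GC 6mm replicates 1 and 3 kept in and with 2 hens at NC GC F1. Whether they hold with the hen as a block or with hens or libraries left out is not given here. In GCs between F1 and 6mm, the ligands had 2 higher and 3 lower of 13 tested (median log2 -2.78, against -0.36 over all genes), the receptors 4 higher and 1 lower of 13 (0.44), and the signal-transducing SMADs 3 higher and 1 lower of 6 (2.05), where 29% of all genes were called. The ligand list holds the oocyte genes GDF9 and BMP15. SMAD4, the common partner, fell from 72.0 FPKM at 6mm to 1.31 FPKM at F1 (log2 -4.95, SE 0.54, adjusted p = 0.00408). SMAD1, which carries the BMP signal, rose from 7.88 to 38.8 FPKM (log2 3.19), and SMAD3, which carries the TGF-beta and activin signal, from 6.50 to 84.4 FPKM (log2 4.55). The other SMADs of the BMP signal did not rise alike in FPKM. SMAD5 was at 67.7 FPKM at 6mm and 70.1 FPKM at F1, and SMAD9 at 1.04 and 0.0501 FPKM. SMAD2, the most abundant of the list, was at 185.5 and 985 FPKM. In TCs the same comparison gave 2 higher and 3 lower of 12 ligands (median log2 0.03, against 0.03 over all genes), 5 and 4 of 13 receptors (0.10) and 1 and 1 of 6 signal-transducing SMADs (0.38), where 18.4% of all genes were called. SMAD3 rose there too (41.9 to 66.4 FPKM, adjusted p = 0.0214), and the type I BMP receptor BMPR1A fell from 7.05 to 2.43 FPKM (log2 -1.43, adjusted p = 0.00644).

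The other negative regulators split in GCs. Between F1 and 6mm, 4 rose and 3 fell of 14 (median log2 -0.25), with 29% of all genes called. FST, which binds activin, fell from 310.4 to 1.89 FPKM (log2 -6.60), and NOG, which binds BMPs, from 99.0 to 5.48 FPKM (log2 -3.35). The ubiquitin ligase SMURF1 rose from 10.5 to 51.4 FPKM (log2 3.17) and TOB1, which holds back BMP SMADs, from 24.0 to 126 FPKM (log2 3.27). In TCs 5 rose and 0 fell of 14 (median 0.48, with 18.4% of all genes called), TOB1 among them (44.7 to 91.4 FPKM, log2 1.28) and NOG (2.11 to 7.58 FPKM, log2 2.08). Genes called in the same direction in both layers between F1 and 6mm were ACVR1B, ACVR2A, AMH, GREM1, SMAD3, TGFB1, TGFBR1, TGFBR2 and TOB1. AMH fell from 239.6 to 0.388 FPKM in GC and from 231 to 8.60 FPKM in TC.

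Of the E proteins to which ID proteins bind, 0 of 3 passed in GCs between F1 and 6mm (median log2 0.61) and 1 of 3 fell in TCs, TCF12, from 159.7 FPKM at 6mm to 83.9 FPKM at F1 (log2 -0.69, SE 0.13, adjusted p = 0.0176). Between layers all 3 were called higher in TC at 6mm (median log2 2.18, against -0.06 over all genes) and at F1 (median 1.097, against 0.19), and 2 of 3 at F5, where 27%, 37% and 36% of all genes were called. The mean levels of all 3 were higher in TC at F5 too. TCF3 was at 28.6 FPKM in TC and 17.4 FPKM in GC, TCF4 at 7.59 and 1.02 FPKM and TCF12 at 109.8 and 48.8 FPKM. TCF12 was at 34.9 FPKM in GC and 159.7 FPKM in TC at 6mm. Among other known BMP targets, 1 of 6 rose and 1 fell in GCs between F1 and 6mm. HEY1 fell from 96.3 to 1.12 FPKM (log2 -5.53, SE 0.34, adjusted p = 0.00251), and HEY2 was called higher (34.2 FPKM at 6mm and 50.4 FPKM at F1) with log2 1.43 in the fit, where the fit ran 0.87 above the FPKM ratio over all genes. At F1 HEY1 was log2 4.97 higher in TC than in GC, and HEY2 log2 -3.51 lower. No gene of the 6 lists passed for either compound against NC, except 1 receptor that was lower in bic GCs at F1.

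**Figure D5:**
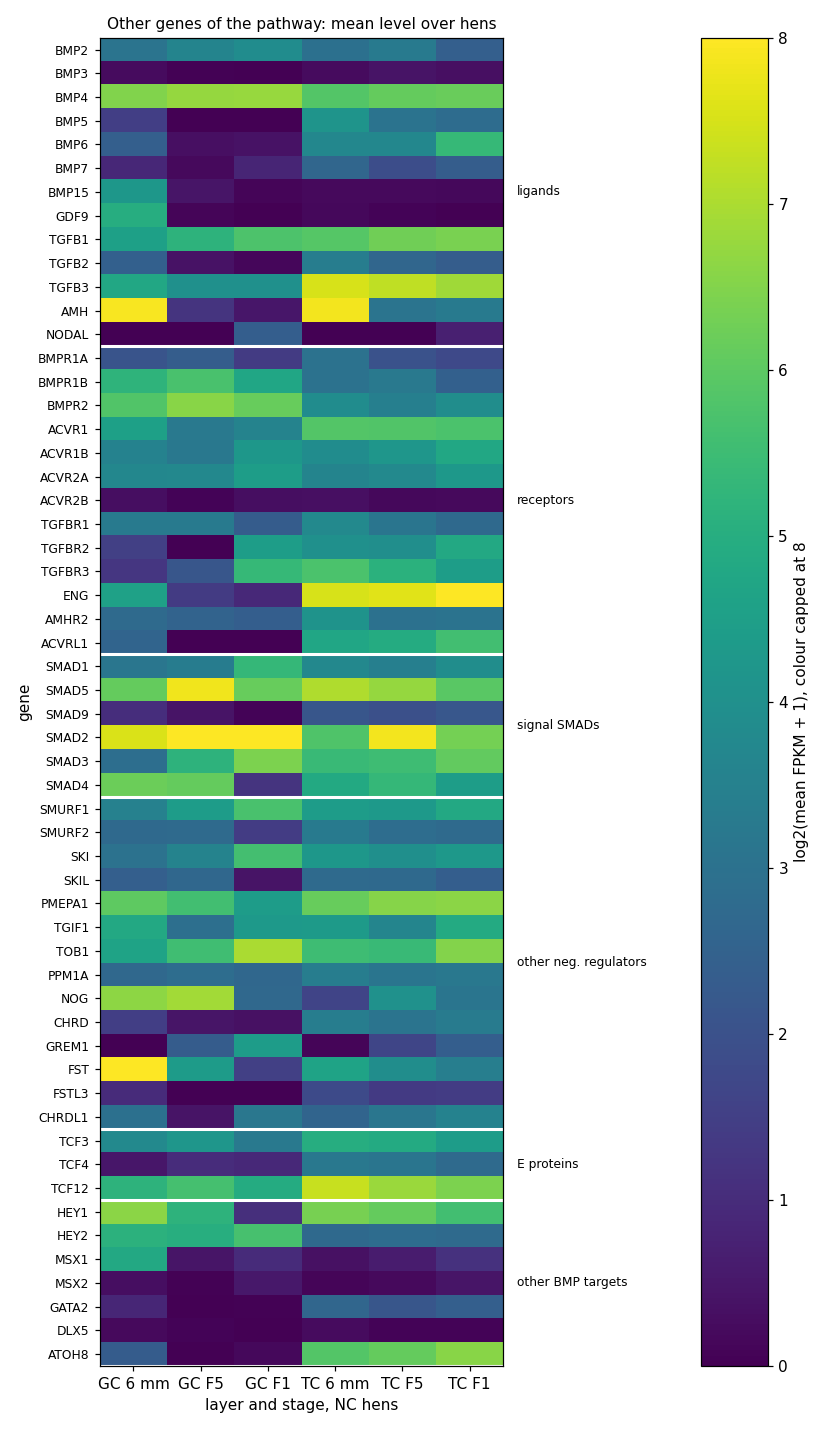
Mean level of the pathway genes in the 6 NC groups, shown as log2(FPKM + 1) by colour, with genes in rows grouped by list and groups in columns (GC then TC, 6 mm to F1). SMAD4, FST, NOG and HEY1 darken from 6 mm to F1 in GC while SMAD1, SMAD3 and TOB1 brighten.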

How the data were processed

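RNA of 54 chicken granulosa and theca libraries was sequenced as paired reads of 150 bases after polyA selection with an NEB Next Ultra kit, whose strand setting is not given in the sources used here. According to the study's methods and the submitters' processing notes, the authors used Cutadapt for trimming, HISAT2 (2.1.0) for alignment to Gallus_gallus-5.0, Samtools for taking out duplicates and StringTie (1.3.4d) for levels of annotated transcripts. The deposited table holds counts per gene, derived from StringTie's coverage, so that 1 read pair can add several counts and intervals from counts would cover counting error only. The deposited transcript tables give FPKM and TPM per transcript, computed by the authors with StringTie, and these were summed per gene here.

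Counts of libraries from 1 hen (same hen number in the library name) were summed. Each comparison was fitted on its own groups with edgeR (4.0.16) after filterByExpr and TMM scaling, with the quasi-likelihood test and Benjamini-Hochberg adjustment over all tested genes. A call needed an adjusted p of 0.05 or less and a mean of at least 1 FPKM in either group. DESeq2 (1.42.0), RLE scaling, library size scaling, no filter, an added log2 fold change of 1.5, libraries kept apart, the hen as a block and left-out hens or libraries were the alternatives. The fits were tried on simulated counts with 3 independent samples per group and 1 fixed spread. That did not cover groups of fewer than 3 hens, hens shared between groups or libraries with markers of the other layer. No result above rests on it. P-values measure the spread between hens, with at most 3 per group, except where libraries were kept apart. Where a group held 1 hen, the spread comes from the other groups of the fit. The members, the gene lists and the rule for the genes named most alike (the 3 with the highest Pearson correlation over 18 group means) were chosen with earlier results of these data known. Pathway genes were named where called in the same direction in both layers or with the largest change of their list in a comparison, and SMAD1, FST, SMURF1 and HEY2 were chosen after their values were seen. Samples of 1 hen share their number by design; over 67 such pairs the residuals correlated with a median r of 0.14. Sequences were not used here.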

Additional observations from a re-analysis of the deposited data

Results flagged for a closer look

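The stage change of 3 genes differed between the layers of NC hens by a test of the difference itself. ID4 moved lower in GC relative to TC by log2 -2.87 between F5 and 6mm and by log2 -3.55 between F1 and F5. SMAD7 did so by log2 -2.16 between F5 and 6mm, and SMAD6 by log2 -2.67 between F1 and F5. With NC GC 6mm replicates 1 and 3 left out, the differences between F5 and 6mm were log2 -1.52 for ID4 and log2 -2.59 for SMAD7 and did not pass (edgeR, adjusted p = 0.254 and 0.0626), and those between F1 and F5 passed. The groups held at most 3 hens, so that no rule for a single sample far from the others was applied to the levels of these genes. Libraries were singled out by their markers, and each hen was left out in turn.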

How the results depend on the processing

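No call among the genes named in NC hens changed its direction under any alternative. Of the 7 genes over all comparisons of a kind, 6 calls were made for NC stages in GC, 9 for NC stages in TC, 11 for NC layers, 2 for bic stages, 16 for mes stages, 20 for layers under a drug, 4 for layer by stage and 0 for each drug against NC and for treatment by stage. DESeq2 made 12 calls for NC stages in GC, 10 for bic stages, 2 for bic against NC, 5 for mes against NC and 1 for treatment by stage. With each library as its own replicate there were 12 for NC stages in GC, 11 for bic stages, 3 for bic against NC and 1 for treatment by stage. This setting counts libraries of 1 hen as separate samples, so that its p-values do not measure the spread between hens. Its counts differed from those of the main fits only in comparisons with NC GC F1, bic GC F1 or bic TC F1. Without a low-count filter there were 5 for NC stages in TC, 1 for bic against NC and 1 at F5 between the NC layers (3 with the filter). An added log2 fold change of 1.5 left 1 for NC stages in TC, 6 for NC layers, 0 for bic stages and 6 for mes stages, by construction. All hens in 1 fit gave 6 for bic stages. Library size scaling in place of TMM, also chosen after seeing the data, gave 10 for NC stages in GC, 5 for NC stages in TC and 1 for bic stages. The hen as a replicate block gave 4 for NC stages in TC and 5 for bic stages (4 of 6 comparisons could be fitted), with 4, 8, 17 and 3 for NC stages in GC, NC layers, mes stages and layer by stage, and 0 against NC. Without NC GC 6mm replicates 1 and 3 there were 3 for NC stages in GC and 2 for layer by stage. Without bic GC F5 and 6mm replicates 2 there were 8 for bic stages. Without bic GC 6mm 1, bic TC F5 1 and NC TC F5 2 and 3, an alternative chosen after seeing the data, there were 4 for NC stages in TC and 0 for layer by stage. Leaving out 1 hen gave 3 to 8 for NC stages in GC, 3 to 7 in TC, 8 to 13 for NC layers, 0 to 7 for bic stages, 12 to 17 for mes stages, 18 to 22 for layers under a drug, 0 for bic against NC, 0 to 3 for mes against NC, 2 to 5 for layer by stage and 0 to 1 for treatment by stage. Apart from the smaller samples, the stricter fold and the libraries of 1 hen counted as separate samples, the cause of these changes was not tested. RLE scaling moved the median of all genes by at most 0.126 on the log2 scale, while TMM lay above library size scaling by 0.90 for NC GC F1 against 6mm. Depth limited only SMAD7 in bic and mes GCs at F1. There a library at 0 would allow up to 3 counts if counts were independent, and more since 1 read pair can add several.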
